A study of Mus musculus with 18 samples.

Results

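The histone variants described here are 9 genes out of 54232 in the count table, chosen by name: the testis linker histones H1f7 and Hils1, the testis core histones H2al2a, H2ap and H2bl1, and the replacement histones H3f3a, H3f3b, H2afx and H2afz. Their mRNA was measured in round spermatids (RS), haploid germ cells that have finished meiosis and have not begun to elongate, in 6 libraries each from WT, KO and KI mice aged 75 to 85 days. KO mice lack GRTH, an RNA helicase of male germ cells that Ddx25 encodes. In KI mice, as the study describes them, a human GRTH gene with a missense mutation stands in and phosphorylated GRTH is missing. Males of either mutant are sterile and their RS do not elongate, so any later spermatids that a preparation of RS could hold are present in WT testes and not in theirs. RS were enriched by sedimentation through albumin, and total RNA was sequenced by strand, with no polyA selection. Levels are given as CPM, a gene's counts after scaling to a common library size, and differences as log2 fold changes from the fit, where -1 means that the level is halved.

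Spermatids pack their DNA by exchanging histones. In meiotic and round stages, testis forms of the core and linker histones join or replace the somatic forms. During elongation most histones are removed, transition proteins are loaded in their place, and protamines then take over. Linker histones bind where DNA enters and leaves the nucleosome. Variants of H2A and H2B sit in the nucleosome core, and some of them open or loosen it. Replacement variants such as H3.3, H2AX and H2A.Z are made outside the S phase and can be placed on DNA that is not being copied.

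The targeted gene was read first. Ddx25 had between 538 and 607 CPM in the WT libraries (median 564) and between 47.7 and 90.9 in KO (median 72.2). In 5 of the 6 KI libraries it had between 0.0456 and 0.519 CPM, whereas the library labelled KI 4 had 56.9, within the range of KO and not of the other KI libraries. That library shared more than the Ddx25 level with KO. On an index of the differences between libraries, where 1 is counting noise alone, KI 4 and KO 2 were the closest pair of all at 1.59, and 6 other pairs of the same genotype lay between 2.05 and 3.24. The KI tests of the variants are therefore given with KI 4 and without it, while the ranges and means of KI levels include it unless stated. The labels do not say that the 6 libraries of a genotype came from separate mice, so the p-values measure the spread between these libraries, which may be technical. Total counts per library ran from 18766971 to 26776555, and the 9 variants had between 141 counts (H2ap in KO 3) and 13466 (H1f7 in a WT library), so all 9 lay far above the floor of 3 counts and all passed the filter on low counts that left 21058 genes.

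Among the 9 variants, the 5 testis forms, called germline variants from here on, were lower in both mutants, and no replacement variant was called lower. In KO compared to WT, 5 of the 9 were lower and 1 was higher at an adjusted p under 0.1 (edgeR quasi-likelihood test, Benjamini-Hochberg over all genes tested), where 13.5% of all genes tested were lower and 16.4% higher. In KI compared to WT, 5 were lower and 0 higher, beside 15.4% and 16.1% of all genes. In KI those 5 were also all that had an unadjusted p under 0.05 in edgeR, against 8 without KI 4, and DESeq2 likewise called 0 higher. Tested against a change of 1 log2 unit (edgeR glmTreat), H1f7, H2al2a, H2ap and H2bl1 were lower in both, which is 4 of 9 where 1.13% of all genes were lower in KO and 1.43% in KI. None was higher by that test, beside 0.598% and 0.522% of all genes. These calls did not all hold when close pairs of libraries were summed into 1. H2ap in both mutants and H2bl1 in KO kept them, and they were lost for H1f7 (edgeR adjusted p = 0.439 in KO and 0.185 in KI), H2al2a (0.108 and 0.146) and H2bl1 in KI (0.198), at log2 fold changes of -1.88 and -2.12, -1.73 and -1.74, and -1.71. The median log2 fold change of the 9 was -0.74 in KO and -1.02 in KI (-1.04 without KI 4), while that of all genes tested was 0.03 and 0.05. H1f7, H2al2a, H2ap and H2bl1 had been named by the study from its calls on these same libraries, so their direction is not independent evidence. Both comparisons use the same 6 WT libraries. In bulk RNA, fewer cells of a type and less RNA per cell cannot be told apart.

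**Figure D1:**
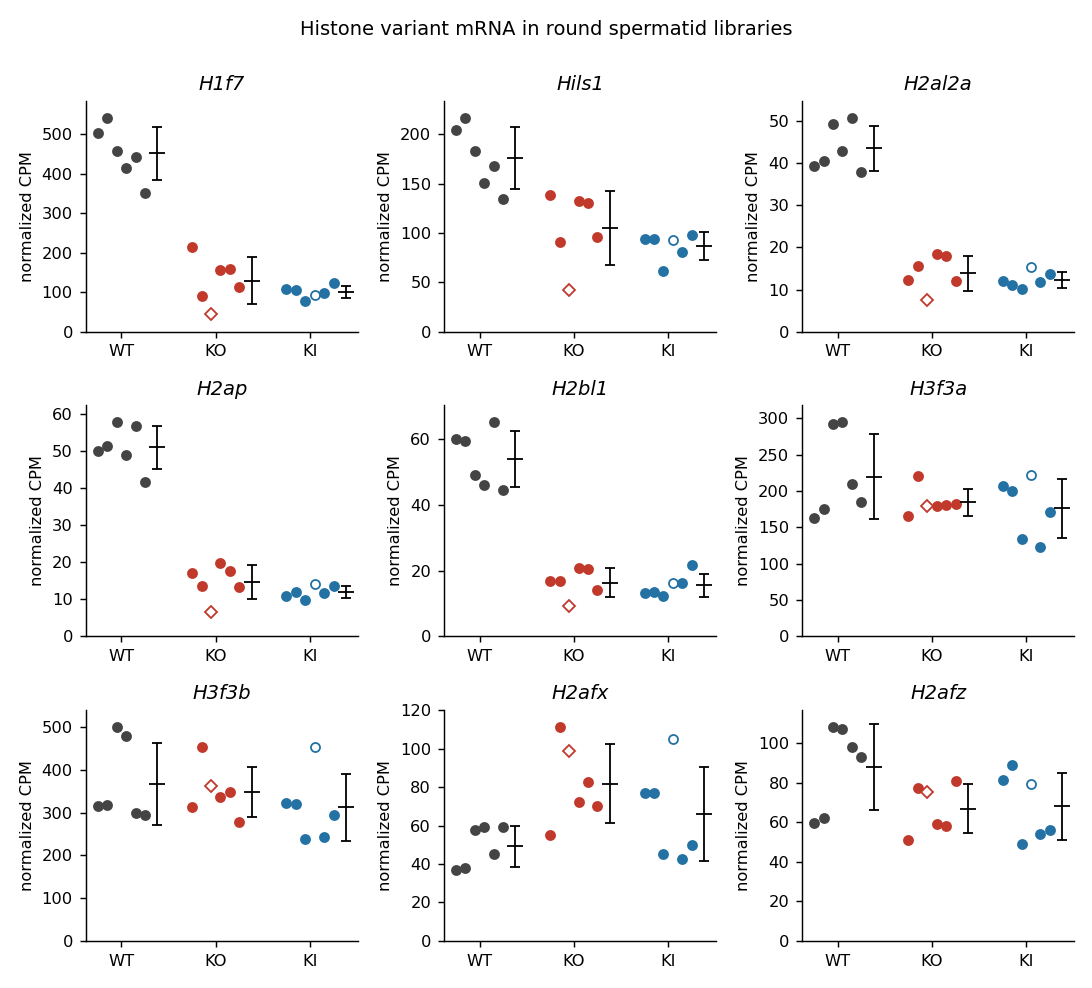
Level of each of the 9 histone variants in every library, as normalized CPM on linear axes from 0, with the bar at the mean and the error bar at 1 SD (n = 6 per genotype); the open circle is the library labelled KI 4 and the open diamond is KO 3. H1f7, H2al2a, H2ap and H2bl1 show no overlap between WT and either mutant, Hils1 overlaps WT in KO but not in KI, and the 4 replacement variants overlap WT in both. The share of all genes tested that show no overlap was not counted.

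H1f7 and Hils1 are the linker histones of the group. H1f7 (also H1fnt; ENSMUSG00000048077, 1 exon on the minus strand at chr15:98255986-98257293 of GRCm38) is made in round spermatids, where its protein gathers at the pole of the nucleus under the acrosome, and mice without it condense their sperm chromatin poorly. In WT it had a lowest level of 351, a median of 449 and a highest of 541 CPM. In KO these were 44.2, 135 and 213, and in KI 77.7, 101 and 123. No mutant library reached the lowest WT library, and KO 3 was the lowest of all 18. Its mean went from 451 ± 66.7 (SD, n = 6) in WT to 129 ± 59.5 in KO and 100.5 ± 14.99 in KI. In KO it was 3.49-fold lower, a log2 fold change of -1.80 ± 0.24 (SE), with edgeR adjusted p-values of 1.19e-05 for any change and 0.0877 for the test against 1 log2 unit. In KI it was 4.49-fold lower (-2.17 ± 0.24, edgeR adjusted p = 1.01e-06 and 0.00386), and without KI 4 the log2 fold change was -2.15 with 5.71e-06 and 0.0110. The KO call against 1 log2 unit lay near the threshold. It held in 7 of the 18 fits that left out 1 library and was lost without WT 1, 2, 4 or 5, KO 2 or 6, or any KI library but KI 3, with an edgeR adjusted p of up to 0.244 (without KO 2).

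Hils1 (also H1f9; ENSMUSG00000038994, 1 exon on the plus strand at chr11:94967593-94968456) encodes a linker histone found in elongating spermatids. The gene lies inside Sgca on the opposite strand, its exon shares no base with an exon of Sgca, and Sgca itself had mean levels of 7.75, 7.96 and 8.33 CPM in the 3 genotypes, in the order WT, KO, KI. The WT levels of Hils1 were 135 at the lowest, 176 at the median and 217 at the highest. The KO levels were 41.9, 113 and 139, and the KI levels 61.7, 93.7 and 98.2. The highest KO library, KO 1, thus stood just above the lowest WT library, WT 6, whereas the KI libraries all stood below WT. The fall was 1.68-fold in KO (log2 fold change -0.74 ± 0.21, edgeR adjusted p = 0.0123) and 2.03-fold in KI (-1.02 ± 0.21, edgeR adjusted p = 0.000986). Without KI 4 the KI value was -1.04 (edgeR adjusted p = 0.00201), and without KO 3 the KO value was -0.58 (0.00951). Neither passed the test against 1 log2 unit.

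Within each library the linker histones did not fall by the same amount. The ratio of H1f7 to Hils1, both as CPM per kb of gene model, lay between 1.63 and 1.82 in WT, between 0.655 and 1.01 in KO and between 0.661 and 0.832 in KI. WT thus had more H1f7 than Hils1 per kb in every library, and no mutant ratio came near the lowest WT ratio. On the log2 scale the ratio differed by -1.12 ± 0.09 (SE) in KO and by -1.15 ± 0.06 in KI, each with an exact two-sided permutation p of 0.00216, the smallest that 6 against 6 libraries allow, or 0.00487 after adjustment over the 9 ratio tests made. Without KI 4 the KI difference was -1.11. The 3 pairs of variants compared in this way were matched by their role, after the levels had been seen, so these p-values are not those of a comparison chosen blind to the data. The permutations also count every library as a separate unit, although some libraries form close pairs. With each close pair counted as 1 sample, 3 WT, 5 KO and 4 KI samples remain, too few for a p this small. The p-values of all ratio tests may thus overstate the evidence.

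The core variants H2al2a, H2ap and H2bl1 fell together. H2al2a (ENSMUSG00000062651, 1 exon on the minus strand at chr2:17996417-17996958) encodes an H2A variant that pairs with the testis H2B and is needed for transition proteins to load onto DNA. It ranged from 37.9 CPM through a median of 41.7 to 50.6 in WT, from 7.50 through 13.9 to 18.3 in KO and from 10.04 through 11.9 to 15.4 in KI. No mutant library came near the lowest WT library, and KO 3 was again the lowest of all. In KO it was 3.11-fold lower, with a log2 fold change of -1.64 ± 0.17 (SE) and edgeR adjusted p-values of 3.05e-07 (any change) and 0.0357 (1 log2 unit). The latter was 0.106 without WT 5 and 0.102 without KO 6, which left 2 variants, H2ap and H2bl1, called past 1 log2 unit in KO in each of those edgeR fits. In KI it was 3.52-fold lower (-1.81 ± 0.17, edgeR adjusted p = 6.04e-08 and 0.00375), and -1.89 without KI 4 (1.28e-07 and 0.00284). Windows of 50 bases that also occur in H2al1o, H2al2b, H2al2c or H2al1k make up 5.48% of the gene, and the first 3 of these had at most 7, 2 and 2 counts in any library.

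H2ap (also Hypm; ENSMUSG00000040456, 1 exon on the plus strand at chrX:9846928-9847508) is an X-linked short H2A variant of the testis. Its lowest, median and highest levels were 41.9, 50.7 and 57.8 CPM in WT. They were 6.70, 15.4 and 19.8 in KO and 9.81, 11.9 and 14.1 in KI. The gap between WT and the mutants was wide, since the highest mutant library, KO 4, was far under WT 6. The mean of 51.2 ± 5.82 CPM in WT stood against 14.7 ± 4.62 in KO and 11.99 ± 1.61 in KI. H2ap was 3.48-fold lower in KO (-1.80 ± 0.18, edgeR adjusted p = 1.74e-07 and 0.00856, in the same order). In KI it was 4.26-fold lower (-2.09 ± 0.18, edgeR adjusted p = 1.86e-08 and 0.000277). Leaving out KI 4 gave -2.14 (edgeR adjusted p = 6.76e-08 and 0.000436).

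H2bl1 (ENSMUSG00000045022, 1 exon on the minus strand at chr13:98984085-98984565) encodes a spermatid H2B variant. In WT it stood at 44.5 CPM in the lowest library, 54.2 at the median and 65.0 in the highest. KO gave 9.31, 16.8 and 20.8 and KI gave 12.1, 14.8 and 21.7. Again every mutant library lay under every WT library, with KO 3 lowest and KI 6 the highest of the mutants. The log2 fold change was -1.72 ± 0.17 in KO, 3.296-fold lower, with edgeR adjusted p-values of 2.51e-07 (any change) and 0.0175 (1 log2 unit). In KI it was -1.80 ± 0.17, 3.49-fold lower (edgeR adjusted p = 1.02e-07 and 0.00591), and -1.82 without KI 4 (5.37e-07 and 0.0110).

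For H1f7, H2al2a, H2ap and H2bl1, the variants called past 1 log2 unit in both mutants over all libraries, the sequence just before their transcription start is shown, from base -120 to base -21 against the RefSeq start on GRCm38.p6. The word TGACAT and its reverse complement ATGTCA are in capitals. It was picked after these sequences had been read, and a match is not a binding site.

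H1f7, chr15:98257328-98257427, minus strand: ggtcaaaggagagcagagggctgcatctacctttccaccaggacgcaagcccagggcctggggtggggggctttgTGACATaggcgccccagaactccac
H2al2a, chr2:17996979-17997078, minus strand: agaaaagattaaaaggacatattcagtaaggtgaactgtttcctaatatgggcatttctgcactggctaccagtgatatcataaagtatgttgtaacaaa
H2ap, chrX:9846827-9846926, plus strand: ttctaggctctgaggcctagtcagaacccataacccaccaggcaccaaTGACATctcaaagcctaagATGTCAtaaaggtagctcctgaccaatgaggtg
H2bl1, chr13:98984586-98984685, minus strand: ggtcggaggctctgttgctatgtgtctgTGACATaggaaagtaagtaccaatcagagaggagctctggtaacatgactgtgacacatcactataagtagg

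H1f7 and H2bl1 hold the word once each in this window, H2ap holds it in both orientations, from base -72 and from base -53, and H2al2a does not hold it. Over the 250 bases before the start, on either strand, TGACAT was in 4 of the 8 variants with a RefSeq promoter entry (H1f7, H2ap, H2bl1 and H3f3b) and in 12.1% of 32851 promoters. In H1f7 and H2bl1 the word lies in a longer shared run, TGTGACATAGG, of 11 bases, which starts at base -47 in H1f7 and at base -94 in H2bl1. It was in 5 promoters in all (0.0152%). The run was picked as the longest that these promoters share, so both hold it by that choice. How many promoters would hold such a run by chance was not tested. The cyclic AMP response element TGACGTCA, which is its own reverse complement, was in 0 of the 8 and in 1.55% of promoters. TATAAA was found before H3f3b only (12.4% of promoters), CCAAT before 6 of the 8 (33.8%) and GGGCGG before H3f3a and H2afz (32.7%), on either strand. H2afx had no entry.

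**Figure D2:**
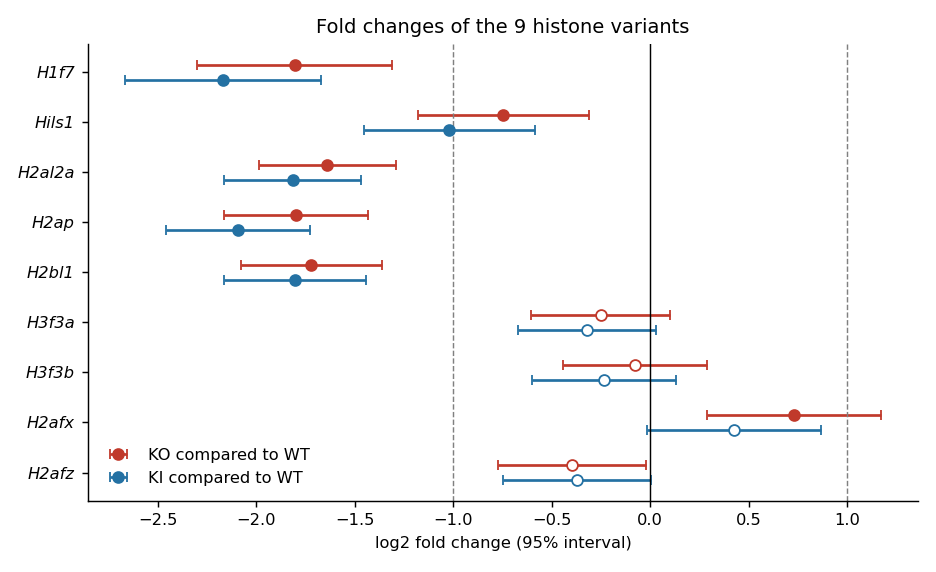
Log2 fold change of each variant in KO and in KI compared to WT, with its 95% interval; filled points had an edgeR adjusted p under 0.1 for any change and dashed lines mark 1 log2 unit in each direction. The 5 germline variants lie between -0.74 and -2.17, and of the replacement variants H2afx in KO, at 0.73, is the filled point.

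H3f3a and H3f3b encode the same protein, the replacement histone H3.3, from separate genes. H3.3 is placed on DNA at active genes, and on the sex chromosomes of meiotic cells. Their coding sequences have 411 bases each and are identical at 316 of them (76.9%), so the counts can tell the transcripts apart over most of their length. The first 60 coding bases are shown to make this plain, with the 13 bases that differ in capitals.

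H3f3a: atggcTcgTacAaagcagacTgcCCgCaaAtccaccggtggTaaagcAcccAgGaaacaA
H3f3b: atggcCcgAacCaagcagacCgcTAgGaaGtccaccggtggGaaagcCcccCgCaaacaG

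H3f3a (ENSMUSG00000060743, minus strand, chr1:180800832-180813943) had a lowest, median and highest level of 163, 197 and 294 CPM in WT. In KO it had 166, 179.8 and 221, and in KI 123, 186 and 221. The ranges overlapped, and WT was the widest, with WT 3 and WT 4 at 292 and 294 and the other WT libraries at 209 or under. The log2 fold change in KO was -0.25, with a 95% interval from -0.60 to 0.10 (edgeR adjusted p = 0.321). In KI it was -0.32, from -0.67 to 0.03 (edgeR adjusted p = 0.184), and -0.40 without KI 4 (0.111). Both intervals include 0. Windows of 50 bases shared with other genes make up 12.3% of its exons, spread over 132 genes, so its counts carry that uncertainty. Of these genes 38 are pseudogenes, and 1 of them holds up to 6.73% of the windows of H3f3a, while none of the 78 protein-coding genes holds more than 0.522%. An antisense gene, H3f3aos, overlaps it and had mean levels of 6.38, 6.17 and 5.29 CPM in the same order, counted by strand.

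H3f3b (ENSMUSG00000016559, minus strand, chr11:116021912-116027962) was the higher of the pair in each library. Its levels were 295, 317 and 501 CPM at the lowest, median and highest in WT, 279, 343 and 453 in KO, and 239, 308 and 454 in KI. As for H3f3a, WT 3 and WT 4 stood above the other WT libraries, and KO 2 and the library labelled KI 4 were the highest of their genotypes. The log2 fold change was -0.08 in KO, with a 95% interval from -0.44 to 0.29 (edgeR adjusted p = 0.820). It was -0.24 in KI, from -0.60 to 0.13 (0.373 by edgeR), and -0.37 without KI 4 (0.123). The sign in KO turned when WT 3 or WT 4 was left out, to 0.03 and 0.01. The ratio of H3f3b to H3f3a per kb lay between 1.68 and 2.28 in WT, 1.81 and 2.42 in KO, and 1.84 and 2.42 in KI. On the log2 scale this ratio differed from WT by 0.16 ± 0.09 (SE) in KO and by 0.08 ± 0.09 in KI, with exact permutation p-values of 0.104 and 0.394. The KO value rested on single libraries: it was 0.22 without KO 6 (exact permutation p = 0.0173) and 0.20 without WT 1 (0.0498), before adjustment. Without KI 4 the KI value was 0.039 (exact permutation p = 0.682).

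H2afx was the variant that rose. It encodes H2AX (ENSMUSG00000049932, 1 exon on the plus strand at chr9:44334694-44336077), whose phosphorylated form marks DNA breaks and the silenced sex chromosomes of meiotic cells. Its lowest, median and highest levels were 36.9, 51.4 and 59.3 CPM in WT. The KO levels were 55.2, 77.3 and 111, and the KI levels 42.4, 63.4 and 105. KO 1 was the KO library that fell within the WT range, and KO 2 and the library labelled KI 4 were the highest of all at 111 and 105. In KO it was 1.66-fold higher, with a log2 fold change of 0.73 ± 0.21 (SE) and an edgeR adjusted p of 0.0159. In KI the log2 fold change was 0.42, with a 95% interval from -0.02 to 0.86 (edgeR adjusted p = 0.161), and 0.24 without KI 4 (0.426). The KO call was lost when close pairs of libraries were summed into 1, at a log2 fold change of 0.74 with an edgeR adjusted p of 0.106. Windows of 50 bases shared with 21 other genes make up 6.14% of H2afx, and the gene overlaps Gm44335 on the opposite strand, at a mean of 1.95 CPM in WT and 3.07 in KO.

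H2afx lies on the same chromosome as Ddx25, 8.78 Mb from it. Within 1 Mb of H2afx 56 other genes were tested, of which 13 were higher in KO (23.2%) and 9 lower, beside the 16.4% of all genes that were higher. Whether the position has a part in the rise of H2afx was not tested.

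H2afz (ENSMUSG00000037894, plus strand, chr3:137864487-137866922) encodes H2A.Z, a variant found at the nucleosomes that flank active promoters. It had 59.8 CPM at the lowest, 95.6 at the median and 108 at the highest in WT. KO had 51.2, 67.2 and 81.1, and KI 49.2, 67.7 and 89.2. The genotypes overlapped because WT 1 and WT 2 stood at 59.8 and 62.4, under the other WT libraries at 92.9 or more. In KO the log2 fold change was -0.40, with a 95% interval from -0.77 to -0.02 (edgeR adjusted p = 0.123). In KI it was -0.37, from -0.75 to 0.00 (0.145 by edgeR), and -0.42 without KI 4 (0.126). Leaving out WT 1 or WT 2 brought it under the threshold in both mutants, as did leaving out KO 6 in KO and KI 2 in KI. Shared windows make up 16.9% of its exons, with 4 other genes.

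Set against each other within a library, the H2A replacement variants separated the genotypes. The ratio of H2afx to H2afz per kb was 0.588 at the lowest, 0.745 at the median and 0.816 at the highest in WT. It was 1.11, 1.63 and 1.85 in KO and 1.01, 1.16 and 1.70 in KI. Per kb, H2afz was thus the higher of the pair in all WT libraries and H2afx in all mutant libraries. Which of them is higher depends on the lengths used, 1776 bases for H2afz and 1384 for H2afx. In CPM, the KI median was higher for H2afz (67.7 against 63.4) and the KO median for H2afx (77.3 against 67.2). The change of the ratio between genotypes does not depend on these lengths. The ratio was 2.14-fold higher in KO (1.10 ± 0.14 on the log2 scale, SE) and 1.67-fold higher in KI (0.74 ± 0.13), each with an exact permutation p of 0.00216 and 0.00487 after adjustment. As for H1f7 and Hils1, this test counts close pairs of libraries as separate units. Without KI 4 the KI difference was 0.64 with the same exact permutation p. Between KI and KO the log2 ratio differed by -0.36 ± 0.16, with an exact permutation p of 0.0519 (0.0935 adjusted), and by -0.45 without KI 4, where the exact permutation p was 0.0152 before adjustment. Without KO 6 it was likewise -0.45 (exact permutation p = 0.0173 before adjustment).

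**Figure D3:**
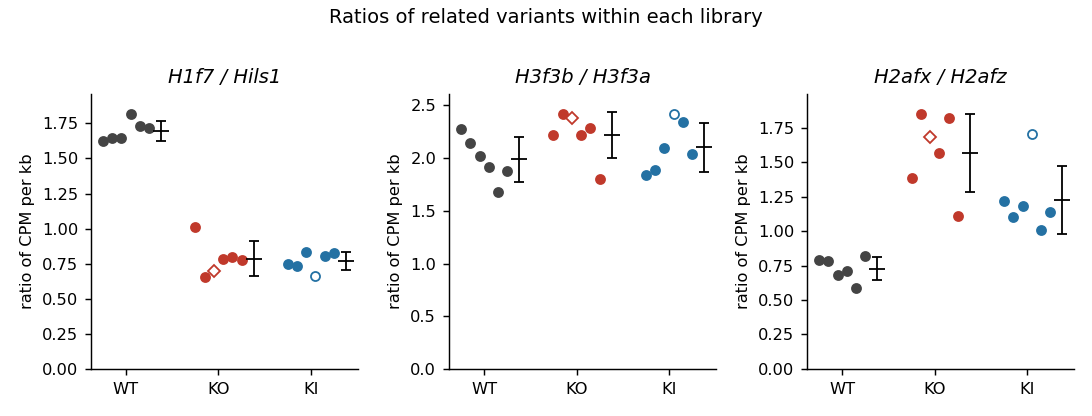
Ratio of levels per kb within each library for H1f7 to Hils1, H3f3b to H3f3a and H2afx to H2afz, by genotype, with the bar at the mean and the error bar at 1 SD (n = 6); the open circle is KI 4 and the open diamond KO 3. The H1f7 to Hils1 ratio is at least 1.63 in WT and at most 1.01 in the mutants, the H2afx to H2afz ratio is at most 0.816 in WT and at least 1.01 in the mutants, and the H3f3b to H3f3a ratio overlaps across genotypes.

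No variant was called between the mutants. In KI compared to KO 0 of the 9 passed either test by edgeR or by DESeq2, 0 had an unadjusted p under 0.05, and the lowest edgeR adjusted p was 0.961. Without KI 4, 0 were called by edgeR, 1 had an unadjusted p under 0.05, and the lowest adjusted p was 0.458, for H2afx. Few genes were called in that comparison at all, 0.076% higher and 0.0237% lower for any change and 0.00475% higher past 1 log2 unit. The log2 fold change of H1f7 between them was -0.36, with a 95% interval from -0.86 to 0.13, and that of H2ap was -0.30, from -0.67 to 0.08. For H2al2a it was -0.18 (from -0.53 to 0.18), for Hils1 -0.28 (from -0.71 to 0.16) and for H2bl1 -0.08 (from -0.44 to 0.28). H2afx gave -0.31, from -0.75 to 0.14, and -0.49 without KI 4. H3f3b gave -0.16, and -0.30 without KI 4. Leaving out KI 4 brought H1f7 to -0.34, H2ap to -0.35, H2al2a to -0.25, Hils1 to -0.30 and H2bl1 to -0.098. With KI 4 in the fit, these 6 intervals do not reach 1 log2 unit in either direction, but that of H1f7 goes down to -0.86, so they do not show that the genotypes were alike.

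The order of the variants by level per length changed between WT and the mutants. In WT the mean was 345 ± 51.0 CPM per kb for H1f7, 204 ± 36.2 for Hils1 and 124 ± 32.1 for H3f3b. Below these came H2bl1 at 112, H2ap at 88.1 and H2al2a at 80.1 CPM per kb, and then H3f3a at 62.7, H2afz at 49.6 and H2afx at 35.7. H1f7 and Hils1 were the neighbours in this order whose libraries did not overlap, and all other neighbours did. In KO, Hils1 came first at 122 ± 42.9, then H3f3b at 117 and H1f7 at 98.8, while H2bl1, H2al2a and H2ap were last at 34.0, 25.7 and 25.3 CPM per kb. In KI, H3f3b came first at 105 ± 26.3, with Hils1 at 100.7 and H1f7 at 76.8 behind it, and the same core variants were last at 32.1, 22.7 and 20.6. The first place in KI rested on KI 4, without which Hils1 came first at 99.2 ± 17.4 (SD, n = 5) and H3f3b second at 95.5 ± 13.6 CPM per kb. All neighbours overlapped in KI (all but H1f7 and H3f3a without KI 4), and in KO all but H3f3a and H2afz. The germline core variants thus stood above H3f3a, H2afx and H2afz in mean level per length in WT and below all of them in the mutants. The WT order rests on the annotated exon lengths. These are 3504 bases for H3f3a, 1776 for H2afz and 1384 for H2afx, against 481 to 581 for the core variants. In mean CPM in WT, H3f3a (220) and H2afz (88.2) stood above H2bl1 (53.9), H2ap (51.2) and H2al2a (43.4). H2afx (49.3) stood above H2al2a alone.

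The variants followed particular libraries within a genotype. WT 6 was the lowest WT library for all 5 germline variants, KO 3 the lowest KO library and KI 3 the lowest KI library. At the upper end, KO 1 was the highest KO library for both linker histones and KO 4 for the core variants. H3f3a, H3f3b and H2afx instead had their highest KO level in KO 2 and their highest KI level in the library labelled KI 4. Leaving out KO 3 brought the KO log2 fold change of H1f7 to -1.63, of H2ap to -1.65, of H2al2a to -1.51 and of H2bl1 to -1.60, and all 4 stayed past 1 log2 unit by edgeR, with the highest adjusted p at 0.0698 for H1f7.

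**Figure D4:**
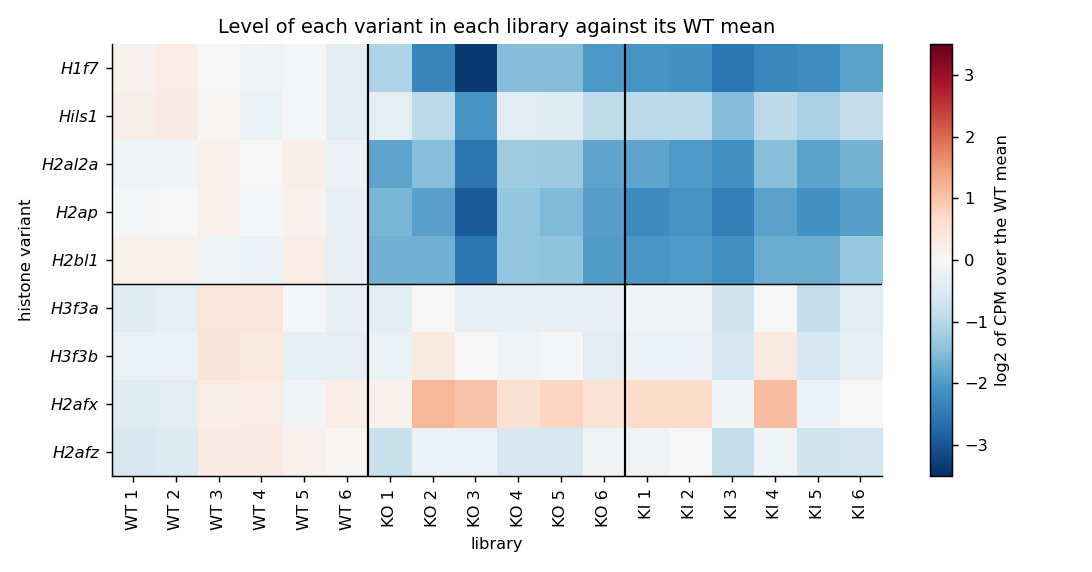
Level of each variant in each of the 18 libraries as log2 of its CPM over the WT mean, blue for lower and red for higher. The 5 germline variants in the upper part are blue in the mutant libraries, darkest in KO 3, and H2afx is reddest in KO 2 and in KI 4.

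Among the other histone variants and the genes listed for H3.3 placement, H2A.Z exchange or H2AX damage signalling, no gene passed the test against 1 log2 unit by edgeR in either mutant. Of 32 further histone variant genes 20 passed the filter, and the 12 that did not, mostly copies of H2al1 and H2al2, had at most 9 counts in any library. In KO 8 of the 20 were higher and 2 lower, and in KI 6 were higher and 4 lower (3 and 6 without KI 4). Their median log2 fold change was 0.18 in KO and 0.12 in KI, or -0.03 without KI 4. Hist1h1t, the linker histone that meiotic cells begin to make, had a mean of 103 ± 36.0 CPM (SD, n = 6) in WT, 276 ± 69.6 in KO and 224 ± 103 in KI, and rose by 1.42 log2 units in KO (edgeR adjusted p = 0.000508) and 1.12 in KI (0.00351), or 0.92 without KI 4 (0.0124). Hist1h2ba, the testis H2B, rose from 50.8 ± 10.01 to 104 ± 30.2 CPM in KO, by 1.03 log2 units (edgeR adjusted p = 0.00197). In KI it stood at 79.9 ± 34.9 CPM, higher by 0.65 (edgeR adjusted p = 0.0385), a call lost without KI 4 at 0.40 (0.147). In KO both genes thus rose while H1f7, Hils1, H2al2a, H2ap and H2bl1 fell.

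Among 10 chaperones of H3.3, which carry it to DNA, 2 were higher in KO and 3 in KI (2 without KI 4) and 0 lower by edgeR, with medians of 0.12 and 0.24 (0.14 in KI without KI 4). Atrx, which works with Daxx at repeats, had 3.09 ± 0.665 CPM in WT and 4.98 ± 0.876 in KO, a rise of 0.69 (edgeR adjusted p = 0.00997), and 3.76 ± 1.02 in KI (log2 fold change 0.28, adjusted p = 0.313, and 0.14 without KI 4). Ubn1, a partner of Hira, rose by 0.31 in KO (edgeR adjusted p = 0.0129) and 0.37 in KI (0.00304), or 0.39 without KI 4. Of 11 genes for the exchange of H2A.Z, 1 was lower in each mutant and 0 were higher, with medians of -0.02 and 0.11, and the latter turned to -0.037 without KI 4. That gene was Actl6a, an actin-like subunit of chromatin remodellers, which went from 160.3 ± 32.9 CPM in WT to 107 ± 12.1 in KO and to 104 ± 21.8 in KI, or -0.58 and -0.62 log2 units (edgeR adjusted p = 0.00655 and 0.00352), and -0.65 in KI without KI 4. Of 10 genes listed for H2AX damage signalling, 5 were higher in KO and 3 in KI (2 without KI 4), and 0 lower. Topbp1, which recruits the checkpoint kinase, rose by 0.47 in KO (edgeR adjusted p = 0.00286) and by 0.28 in KI (0.0667, and 0.168 without KI 4). Rnf168, a ubiquitin ligase at breaks, rose by 0.38 in both mutants (edgeR adjusted p = 0.00331 and 0.00283) and by 0.36 in KI without KI 4. These counts stand beside 16.4% of all genes higher and 13.5% lower in KO, and 16.1% and 15.4% in KI.

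Markers of stages and cell types were summed in each library, and those of late spermatids fell along with the germline variants. The 8 late spermatid markers, transition proteins, protamines and tail proteins, summed to between 14216 and 19771 CPM in WT, 1662 and 4190 in KO, and 2203 and 3417 in KI. All 8 were lower past 1 log2 unit in both mutants by edgeR, a list chosen with that fall known, and its lowest sums were in KO 3 and KI 3, the same libraries that were lowest for the 5 germline variants. The 8 round spermatid markers summed to between 1057 and 1744 CPM in WT, 428 and 1088 in KO, and 485 and 683 in KI, with 3 of 8 lower in KO and 5 of 8 in KI. Their lowest sums were likewise in KO 3 and KI 3, and in WT both lists were lowest in WT 6. The part of either list in the fall of the germline variants was not tested. Spermatocyte markers overlapped at 972 to 1305 CPM in WT, 1053 to 1405 in KO and 1067 to 1397 in KI. Spermatogonia markers summed to 30.0 to 41.0 CPM in WT, 34.2 to 72.8 in KO and 20.9 to 76.3 in KI. The medians were 35.0, 54.0 and 36.3 CPM in that order. The highest sums were in KO 2 at 72.8 CPM and in KI 4 at 76.3. Those libraries had the highest H2afx of all. Their H3f3a and H3f3b were the highest within KO and KI, but WT 3 and WT 4 had more of both. The part of the spermatogonia markers in the H2afx values was not tested.

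Leydig cell markers, of the testis interstitium, summed to 9.68 to 19.7 CPM in WT, 29.6 to 51.0 in KO and 13.2 to 65.7 in KI, and 5 of 5 were higher in both mutants by edgeR. Sertoli sums were 8.42 to 13.8, 7.41 to 12.01 and 6.98 to 12.2 CPM in WT, KO and KI. Macrophage sums were 7.04 to 11.6, 6.43 to 14.6 and 9.16 to 15.6. Endothelial and peritubular sums were at most 4.57 and 6.39 CPM in any library. In 0 of these lists was a marker at the floor in every library, and the part of somatic RNA in any variant's level was not tested.

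**Figure D5:**
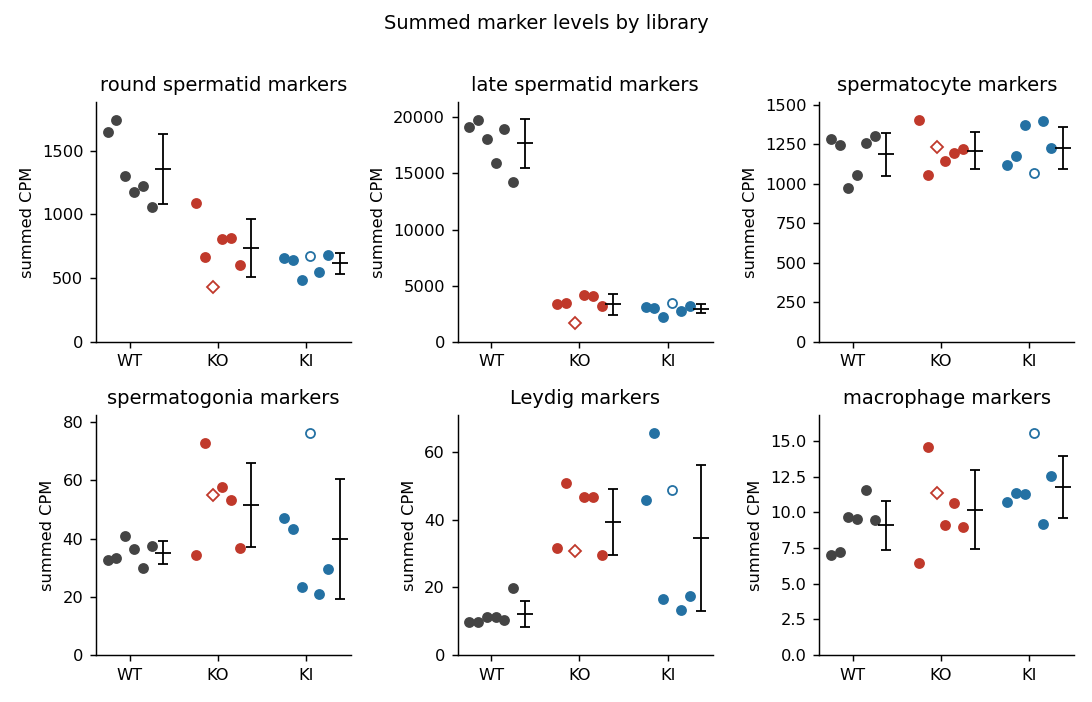
Summed CPM of marker genes in each library for late and round spermatids, spermatocytes, spermatogonia, Leydig cells and macrophages, on linear axes from 0, by genotype, with the open circle for KI 4 and the open diamond for KO 3. The late spermatid sum is between 14216 and 19771 in WT and at most 4190 in the mutants, the spermatocyte sums overlap, and the Leydig sums are higher in KO than in WT.

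For each variant the tested gene most like it across the 18 libraries was found by Pearson's r of log2 CPM, given here as a description, with r after subtraction of the genotype means beside it. Close pairs of libraries share much of their variation, so the libraries are not 18 independent points. For the germline variants these were Vsig1 for H1f7 (r = 0.997, and 0.982 after subtraction), Iqcf5 for Hils1 (0.995 and 0.994) and Bpifa3 for H2al2a (0.992 and 0.948). H2ap was nearest to 1700001K19Rik (0.996 and 0.964) and H2bl1 to Pkm (0.987 and 0.891). Neighbours were counted on r before subtraction, so a difference between WT and the mutants that genes share raises the count. On that basis each germline variant had many, from 180 genes with r over 0.95 for H2bl1 to 301 for H1f7. The replacement variants had fewer, from 5 for H2afx to 19 for H3f3a. Their nearest genes were Thnsl1 for H3f3a (0.971 both before and after subtraction), 1700013H16Rik for H3f3b (0.987 and 0.989), Rack1 for H2afx (0.980 and 0.972) and Prdx5 for H2afz (0.980 and 0.986).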

How the data were processed

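Reads were trimmed (cutadapt 3.4) and aligned to GRCm38 (mm10; STAR 2.7.8a) by the authors, who counted fragments by strand on GENCODE M18 genes with featureCounts of Subread 2.0.1; duplicates were marked and not removed. The deposited table holds raw counts for 54232 genes, and these were used as deposited. Genotype and replicate number were taken from the labels. GENCODE M21 gave symbols to 54079 genes and positions; promoters came from RefSeq on GRCm38.p6.

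Counts were filtered with filterByExpr, scaled by TMM and fitted over all 18 libraries with edgeR 4.0.16 (limma 3.58.1, R 4.3.3). glmQLFTest tested for any change and glmTreat against 1 log2 unit, at a Benjamini-Hochberg adjusted p under 0.1. Intervals are 95% Wald intervals. For ratios within libraries, two-sided exact permutation tests were used. The method was tested on simulated data. Python 3.11.15 and matplotlib 3.10.9 drew the figures.

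The members and lists were chosen with earlier results of these data known. Named were the members, Ddx25, the 2 called genes of each list with the largest change in KO, and the gene most like each member. Any further gene named, such as overlapping genes, gives context. The floor of 3 counts covers counting error only. Alternatives were DESeq2 1.42.0, its size factors, other filters, only the genotypes compared, a replicate block, close library pairs summed and leaving out each library; added after seeing the data were the interval form of glmTreat and the ratio alternatives.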

Additional observations from a re-analysis of the deposited data

Results flagged for a closer look

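Among 30 groups of 6 libraries examined, 2 held a library that stood apart from the other 5 by Dixon's criterion, where the gap to the nearest library is over 0.625 of the range; chance alone does so in about 1 in 20 groups. H3f3a in KO 2 stood at 221 CPM, while the other KO libraries lay between 166 and 182, a gap of 0.711 of the range. KO 2 was also the highest KO library for H3f3b and H2afx. Ddx25 in the library labelled KI 4 stood at 56.9 CPM, while the other KI libraries lay between 0.0456 and 0.519, a gap of 0.992 of the range. The cause of either was not tested.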

How the results depend on the processing

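Of 27 alternatives for each count of variants, the counts of any change lower stayed at 5 or 6 in KO and in KI. The count of 4 lower past 1 log2 unit in KO was reached in only 12 of the 27, with a range of 2 to 4. In KI the count of 4 was reached in 26 of the 27, with a range of 1 to 4. When close pairs of libraries were summed, which left 3 WT, 5 KO and 4 KI samples, 2 variants were past 1 log2 unit in KO (H2ap and H2bl1), 1 in KI (H2ap), and 0 were higher in KO. Leaving out 1 library gave 2 to 4 past 1 log2 unit in KO (2 without WT 5 or KO 6) and 0 to 1 higher in KI, which was H2afx without WT 3, KI 3 or KI 5. Signs turned only for small differences: H2bl1 in KI compared to KO was 0.10 with close pairs summed, and with 1 library left out the range was -0.17 to 0.027 for H3f3b in KO, -0.067 to 0.10 for H2afz and -0.15 to 0.016 for H3f3a in KI compared to KO, and -0.076 to 0.049 for the log2 ratio of H1f7 to Hils1 in KI compared to KO. H2afz was called lower in KO with DESeq2 size factors (edgeR adjusted p = 0.0955). With the replicate number as a block, the counts were 5 lower, 1 higher and 4 past 1 log2 unit in KO, and 5 lower and 4 past 1 log2 unit in KI; the block changed no call. The numbers did not pair the libraries: of 18 same-numbered pairs 7 had a correlation of deviations over 0.1, from -0.44 to 0.48, and 5 of the libraries correlated best with their own number. Ddx25 had no value with at least 10 counts in every library, and DESeq2 gave it no adjusted p. Members had 141 counts or more in every library, so the spread between libraries and not depth set the intervals.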
